A study of Mus musculus with 6 samples.

Results

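The transcripts described here encode the kinases, cyclins, phosphatases and inhibitors that control meiotic resumption and the later arrest of the egg. They were 10 genes chosen by symbol of 17577 genes listed in each library: *Cdk1*, *Ccnb1*, *Ccnb2*, *Ccna2*, *Cdc25b*, *Wee2*, *Pkmyt1*, *Mos*, *Fbxo43* and *Cdc14b*. All 10 were listed in each of the 6 libraries and all 10 passed the filter on low values. *Mos* and *Ccna2* were part of the choice because they had been seen higher in the mutant. The genotype values of all 10 genes are therefore given as a description, and calls of these genes are not read as tests.

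Germinal vesicle (GV) oocytes, which rest in prophase of the first meiotic division, were taken from antral follicles after gonadotropin priming of 12-week-old females on the C57BL/6 J background. According to the methods of the study each cDNA came from a single oocyte by a modified Smart-seq2 procedure, which primes on poly(A) tails and amplifies the product. The groups were 3 libraries of *Bnc1*tr/tr oocytes and 3 of wild-type (WT) oocytes. *Bnc1* encodes the zinc finger protein basonuclin 1, and the tr allele carries a small exonic deletion that shifts the reading frame to a premature stop. The allele is carried in the germ line, so the follicle cells of the *Bnc1*tr/tr mice had it too. Littermates were compared by the methods, but the labels do not name the mouse behind each library, so the errors and p-values measure the spread between these libraries only.

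A GV oocyte is held by phosphorylation of the kinase CDK1. WEE2 and PKMYT1 (MYT1) place the inhibitory phosphates, CDC25B removes them, and the B-type cyclins activate CDK1 so that the nuclear envelope breaks down. After the first division the MOS kinase and the anaphase-promoting complex inhibitor FBXO43 (EMI2) hold the egg in metaphase II. Much of this control acts on translation: dormant mRNAs such as *Mos* and *Ccnb1* are stored in the growing oocyte and recruited later by lengthening of the poly(A) tail, for which the cytoplasmic polyadenylation element (CPE) of the 3′ untranslated region (UTR) is a known signal.

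Values were FPKM, fragments scaled to transcript length and to all mapped fragments, and differences are given as log2 fold changes of *Bnc1*tr/tr over WT on the log2(FPKM + 1) scale with the limma standard error (SE). The FPKM of the 6 libraries summed to between 657550 and 724550, and a depth of 13.0 to 21.7 M (mega) fragments was estimated from the steps between low values. *Bnc1* itself was lower in the mutant libraries (5.83 to 9.04 FPKM) than in WT (12.54 to 16.23 FPKM), with a log2 fold change of -0.89 ± 0.20 (SE) and an adjusted p of 0.0090 by limma. All 10 oocyte markers were detected, with a summed level of 13380 to 14558 FPKM in *Bnc1*tr/tr and 15678 to 17335 FPKM in WT. These also moved both ways, with 3 means higher and 7 lower in the mutant, and *Zp2* was called lower. *Dppa3* was the largest part of this sum, with means of 6310 FPKM in the mutant and 8067 FPKM in WT and overlapping groups. The 11 granulosa and cumulus markers listed summed to 46.9 to 64.6 FPKM in the mutant and 22.2 to 41.0 FPKM in WT, and moved both ways, with 5 means higher and 6 lower in the mutant. *Cyp19a1* made up most of this sum, *Fshr* and *Cyp11a1* were called higher, and *Foxl2* and *Amhr2* were at or near 0. The 5 theca and stroma markers summed to 5.50 to 7.53 FPKM against 1.40 to 2.09 FPKM, nearly all of it *Dcn*, with the others under 1 FPKM. Immune markers summed to between 1.70 and 63.2 FPKM in the mutant libraries and 1.39 to 3.0 FPKM in WT. All 6 immune means and all 5 theca and stroma means were higher in the mutant. *Lyz2* had 5.81, 47.97 and 0 FPKM in mutant replicates 1 to 3, *Tyrobp* 8.42, 9.8 and 0 FPKM and *C1qa* 1.39, 1.66 and 0.61 FPKM. Each of these was at 0 in every WT library. *Cd68* had 12.2, 3.64 and 0.96 FPKM against 2.94, 1.82 and 1.39 FPKM, and *Ptprc* and *Csf1r* were near 0. Between 10682 and 11035 genes reached 1 FPKM in the mutant libraries and between 9518 and 9748 in WT. The part of these differences in the values below was not tested.

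Letters that match the CPE are shown for the members whose annotated 3′ UTR holds them. Whether any match works as a CPE was not tested. The letters TTTTAT or TTTTAAT were searched on the transcript strand of the representative GENCODE M21 transcript (build GRCm38), and the last 3′ UTR match before the final AATAAA or ATTAAA signal is in capitals, within 30 bases written 5′ to 3′.

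Ccnb1, chr13:100778775-100778804, minus strand: ctcatttgctgTTTTAATttatacatctga
Ccnb2, chr9:70407860-70407889, minus strand: atcctgtatgtaTTTTATtctagtttacat
Ccna2, chr3:36565316-36565345, minus strand: atagaaccagcTTTTAATgtatatttgaaa
Cdk1, chr10:69336263-69336292, minus strand: agtgacaaagaaTTTTATgggtggggtggg
Wee2, chr6:40466757-40466786, plus strand: tttttaacataTTTTAATccagatcattgt
Fbxo43, chr15:36150145-36150174, minus strand: gtatatatgtgtTTTTATactatacacaca
Cdc14b, chr13:64192597-64192626, minus strand: attgtaaaatggTTTTATacaaaatactaa

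At least 1 match lay in the 3′ UTR of 7 of the 10 genes. *Ccna2* had 8 matches in 1369 bases, *Fbxo43* 6 in 1584 bases, *Ccnb1* 4 in 1028 bases, *Cdc14b* 3, *Cdk1* and *Wee2* 2 each, and *Ccnb2* 1 in its 227 bases. No match was found in the 3′ UTRs of *Mos* (126 bases), *Pkmyt1* (124 bases) and *Cdc25b*, which says only that these letters were not in the annotated windows. A match lay in the last 200 bases for *Ccnb1*, *Ccnb2*, *Wee2*, *Fbxo43* and *Cdc14b*, 5 of the 8 members with a 3′ UTR that long, against 28.47% of the 17258 genes with such a 3′ UTR. The match of *Wee2* lay 20 bases before its poly(A) signal, that of *Cdc14b* 59, *Fbxo43* 77, *Ccnb1* 120 and *Ccnb2* 167 bases, whereas those of *Ccna2* and *Cdk1* lay 444 and 1107 bases before it.

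The promoters of *Ccnb1* and *Ccnb2* are shown because the ratio of their transcripts did not overlap between the genotypes. The activity of the promoters was not tested. Each window runs from 250 bases before to 50 bases after the RefSeq start (GRCm38.p6), with CCAAT in capitals. CCAAT and the letters TTTGAA were searched on both strands.

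Ccnb1, chr13:100786437-100786736, minus strand: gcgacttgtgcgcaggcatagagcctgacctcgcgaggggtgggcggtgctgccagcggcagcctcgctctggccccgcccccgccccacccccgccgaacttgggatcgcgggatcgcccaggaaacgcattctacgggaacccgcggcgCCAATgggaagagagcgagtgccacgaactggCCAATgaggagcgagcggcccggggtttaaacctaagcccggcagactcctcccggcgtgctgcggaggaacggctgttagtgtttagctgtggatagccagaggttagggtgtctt
Ccnb2, chr9:70421505-70421804, minus strand: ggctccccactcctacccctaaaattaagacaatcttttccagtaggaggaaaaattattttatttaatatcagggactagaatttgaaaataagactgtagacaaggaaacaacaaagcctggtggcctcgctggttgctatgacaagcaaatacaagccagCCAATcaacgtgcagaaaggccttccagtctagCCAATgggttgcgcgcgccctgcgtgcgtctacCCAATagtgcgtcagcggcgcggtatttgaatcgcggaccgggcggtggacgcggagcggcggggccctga

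CCAAT stood 99 and 67 bases before the start of *Ccnb1* and 87, 54 and 21 bases before that of *Ccnb2*. Of all 32851 mouse promoters of this length, 37.41% held CCAAT, 11.7% held at least 2 copies and 3.37% at least 3. TTTGAA was present in the *Ccnb2* window and absent from that of *Ccnb1*, and 17.89% of all promoters held it. Other spellings of these letters were not searched. RefSeq promoters were matched for 6 members (also *Cdk1*, *Cdc25b*, *Wee2* and *Cdc14b*). The *Cdk1* window held 3 copies of CCAAT and 2 of TTTGAA, and TTTGAA was absent from those of *Cdc25b*, *Wee2* and *Cdc14b*. *Mos*, *Ccna2*, *Pkmyt1* and *Fbxo43* had no entry.

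The 10 transcripts spanned a wide range in WT oocytes on the per-length FPKM scale. *Ccnb1* was the highest at 1190.2 FPKM and ranked 75 of the 10560 genes tested. It was followed by *Mos*, *Ccnb2*, *Wee2*, *Cdk1*, *Ccna2*, *Fbxo43*, *Cdc14b*, *Pkmyt1* and *Cdc25b*, the last at 4.58 FPKM and rank 6624. The WT ranges of *Mos* and *Ccnb2*, of *Cdk1* and *Ccna2*, and of *Pkmyt1* and *Cdc25b* overlapped, and the other neighbours in this order did not. In *Bnc1*tr/tr the order was the same except that *Ccna2* stood above *Cdk1*, with overlapping ranges. The mean of *Mos* was 1.23 times that of *Ccnb2* in WT and 2.75 times in *Bnc1*tr/tr.

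**Figure D1:**
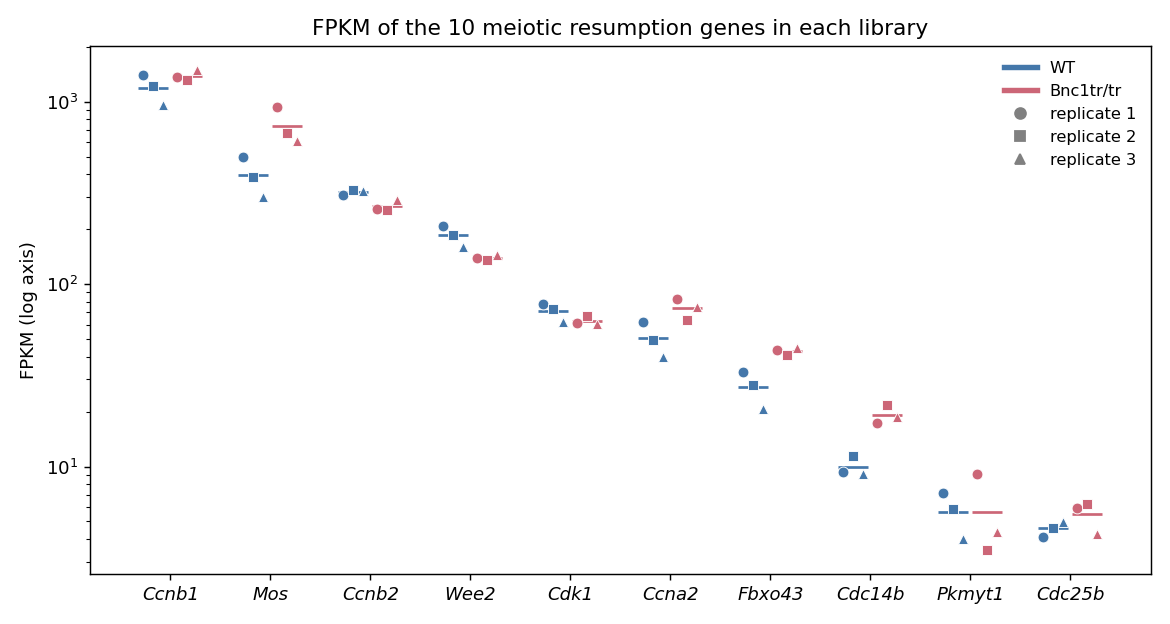
FPKM of the 10 genes (log10 axis) in each library, with a point per library and a horizontal line at the mean of each genotype (n = 3). The mutant points of *Mos*, *Fbxo43*, *Cdc14b* and *Ccna2* lie above all WT points, those of *Ccnb2* and *Wee2* lie below them, and the rest overlap.

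*Cdk1* encodes the catalytic kinase of maturation promoting factor. Replicates 1 to 3 of the mutant held 61.40, 66.75 and 60.08 FPKM and those of WT 77.56, 73.41 and 61.65 FPKM, and the values of the genes below follow the same order. The 2 ranges overlapped through WT replicate 3, and the means were 62.7 ± 3.53 and 70.9 ± 8.25 FPKM (SD, n = 3), a log2 fold change of -0.17 ± 0.16 (SE).

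*Ccnb1*, the major mitotic and meiotic cyclin, had 1364.53, 1312.14 and 1493.02 FPKM in the mutant libraries and 1397.79, 1213.47 and 959.47 FPKM in WT. WT replicate 1 lay inside the mutant range, and the means were 1389.9 ± 93.1 and 1190.2 ± 220.1 FPKM (SD, n = 3), a log2 fold change of 0.24 ± 0.19 (SE). Other genes, the pseudogene *Ccnb1-ps* among them, share 46.93% of the 31-base words of this transcript, so its value is uncertain.

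*Ccnb2*, the second B-type cyclin, which can stand in for CCNB1 in mouse oocytes, had 257.92, 254.47 and 290.47 FPKM in the mutant and 308.14, 329.12 and 323.54 FPKM in WT. Every mutant library was below every WT library. The means were 268 ± 19.9 and 320.3 ± 10.9 FPKM (SD, n = 3), a log2 fold change of -0.26 ± 0.15 (SE).

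*Ccna2*, which encodes cyclin A2, had 82.95, 63.71 and 75.10 FPKM in the mutant and 61.67, 49.63 and 39.68 FPKM in WT. The groups did not overlap, but the lowest mutant library was only just above WT replicate 1. The means were 73.9 ± 9.67 and 50.3 ± 11.01 FPKM (SD, n = 3), a 1.47-fold difference and a log2 fold change of 0.56 ± 0.20 (SE). *Exosc9* overlaps 12.75% of the *Ccna2* exonic bases on the opposite strand, and this library type does not keep strand.

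*Cdc25b*, the phosphatase that activates CDK1 at resumption, was the lowest of the 10 in WT, with 5.96, 6.26 and 4.25 FPKM in the mutant and 4.12, 4.63 and 4.99 FPKM in WT. Mutant replicate 3 fell inside the WT range, and the means were 5.49 ± 1.08 and 4.58 ± 0.437 FPKM (SD, n = 3). The log2 fold change was 0.21 ± 0.18 (SE) as deposited and -0.16 after quantile normalization.

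*Wee2*, the oocyte kinase that inhibits CDK1, had 138.67, 136.34 and 143.94 FPKM in the mutant and 208.89, 185.87 and 159.21 FPKM in WT. All mutant libraries were below all WT libraries, and the mutant values were close together while those of WT were spread. The means were 139.7 ± 3.89 and 185 ± 24.9 FPKM (SD, n = 3), a log2 fold change of -0.39 ± 0.17 (SE).

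*Pkmyt1*, the membrane-bound inhibitor of CDK1, had 9.08, 3.50 and 4.40 FPKM in the mutant and 7.13, 5.82 and 4.01 FPKM in WT. The ranges overlapped, with mutant replicate 1 the highest of the 6 and mutant replicate 2 the lowest. The means were 5.66 ± 3.0 and 5.65 ± 1.57 FPKM (SD, n = 3), a log2 fold change of -0.06 ± 0.31 (SE), which turned to 0.18 without mutant replicate 2, 0.05 without mutant replicate 3 and 0.10 without WT replicate 1. It rested on the fewest fragments of the 10 genes, an estimated 107 to 218 in a library, and *Paqr4* overlaps 15.39% of its exonic bases on the opposite strand.

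*Mos*, the oocyte kinase at the head of the MAP kinase arm, is a single-exon gene at chr4:3870657-3872105 (GRCm38, minus strand). It had 930.00, 670.74 and 609.17 FPKM in the mutant and 495.84, 386.91 and 301.03 FPKM in WT. Every mutant library was above every WT library, and replicate 1 was the highest of its group in both genotypes. The means were 737 ± 170 and 395 ± 97.6 FPKM (SD, n = 3), a 1.87-fold difference and a log2 fold change of 0.90 ± 0.24 (SE). From rank 331 of the genes tested in WT, *Mos* stood at rank 147 in *Bnc1*tr/tr.

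*Fbxo43*, which encodes the EMI2 inhibitor of the anaphase-promoting complex, had 43.42, 40.89 and 44.69 FPKM in the mutant and 33.02, 27.88 and 20.59 FPKM in WT. The groups did not overlap, and the mutant libraries were close together. The means were 43.0 ± 1.93 and 27.2 ± 6.25 FPKM (SD, n = 3), a 1.58-fold difference and a log2 fold change of 0.67 ± 0.20 (SE).

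*Cdc14b*, a phosphatase that opposes CDK1 and can delay resumption in mouse oocytes, had 17.38, 21.68 and 18.66 FPKM in the mutant and 9.33, 11.46 and 9.08 FPKM in WT. The lowest mutant library was well above the highest WT library. The means were 19.2 ± 2.21 and 9.96 ± 1.31 FPKM (SD, n = 3), a 1.93-fold difference and a log2 fold change of 0.89 ± 0.17 (SE).

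Genes were called where the limma adjusted p was under 0.05 and the absolute log2 fold change over 0.5. Of the 10 members, *Mos*, *Fbxo43* and *Cdc14b* met this rule as higher, 3 against a background of 24.1% of all 10560 genes, and 0 met it as lower, against 7.68%. In either direction the background was 31.8%. Because the contrast was used in choosing the genes, nothing is read from these counts. The same holds for how often a member kept or lost its call, given below as a description of the fit. Groups did not overlap for 4 members higher and 2 lower, with a background of 32.7% and 14.1% (46.8% in either direction). Without *Bnc1*tr/tr replicate 1, and likewise without WT replicate 2, the count of members called higher was 1, *Cdc14b*. Over 14 alternatives the call of *Cdc14b* was lost in 0, that of *Mos* in 2 and that of *Fbxo43* in 7. *Fbxo43* lost it with a pseudocount of 0.1, under median-ratio scaling and with each library but WT replicate 1 left out in turn. *Ccna2* passed as higher in 3 alternatives, and *Wee2* as lower in 2, upper-quartile and median-ratio scaling.

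The median log2 fold change of all 10560 genes was 0.15 as deposited, and 0.02, -0.05 and -0.10 under upper-quartile, median-ratio and quantile scaling. Relative to the median as deposited, *Mos* was at 0.76, *Cdc14b* at 0.74, *Fbxo43* at 0.52 and *Ccna2* at 0.41. *Wee2* was at -0.54, *Ccnb2* at -0.41, *Cdk1* at -0.31 and *Pkmyt1* at -0.21, while *Ccnb1* and *Cdc25b* were near it at 0.09 and 0.06. These positions depended on the scaling. Relative to the median under quantile normalization, *Mos* was at 1.03, *Ccnb1* at 0.46, *Wee2* at -0.27, *Ccnb2* at -0.15 and *Cdk1* at -0.14. The median of the 10 members was 0.22. WT replicate 3 was the lowest WT library for 8 of the 10 genes and WT replicate 1 the highest for 7, against 49.5% and 43.8% of all genes tested.

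**Figure D2:**
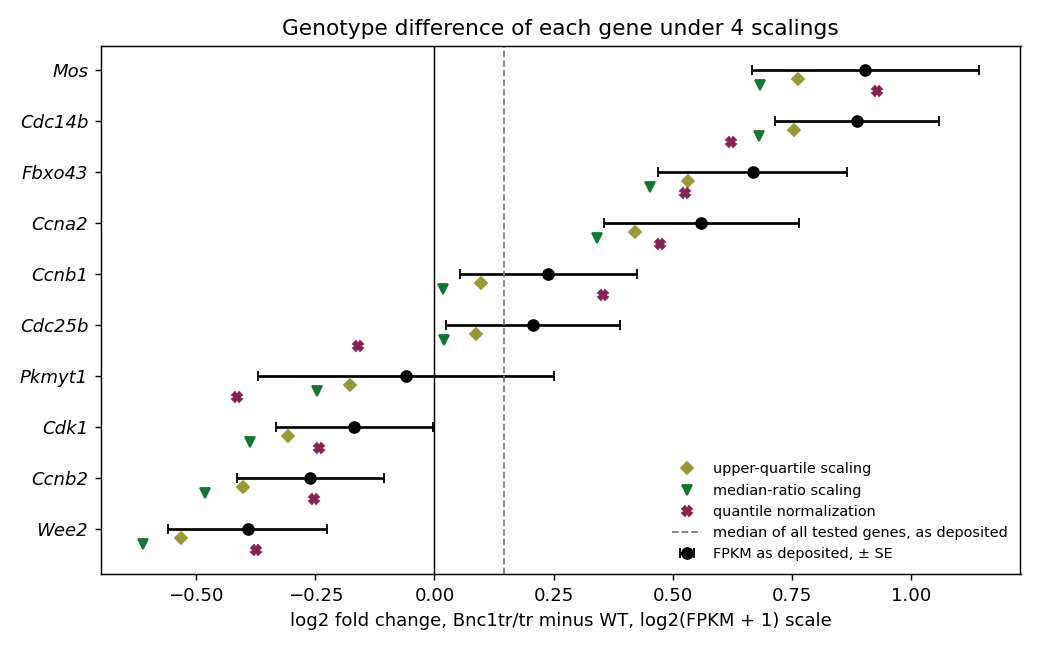
Log2 fold change of *Bnc1*tr/tr over WT for each of the 10 genes, as deposited (with its SE) and under 3 other scalings, with a dashed line at the median of all genes as deposited. *Mos*, *Cdc14b*, *Fbxo43* and *Ccna2* stay above 0 and *Wee2*, *Ccnb2* and *Cdk1* below it in each, while *Cdc25b* reaches -0.16 under quantile normalization.

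Ratios within a library do not depend on its scaling. They were compared without a test, since each rests on members. *Ccnb1* over *Ccnb2* was 5.29, 5.16 and 5.14 in *Bnc1*tr/tr and 4.54, 3.69 and 2.97 in WT. The mutant libraries were nearly equal and all above WT, whose ratios were spread, and the difference was 0.50 on the log2 scale (1.41-fold). Ratios with *Ccnb1* carry the uncertainty of its value, since other genes share 46.93% of its 31-base words. *Ccna2* over the sum of *Ccnb1* and *Ccnb2* was 0.0511, 0.0407 and 0.0421 in the mutant and 0.0362, 0.0322 and 0.0309 in WT, again without overlap, a log2 difference of 0.43. The inhibitory kinases *Wee2* and *Pkmyt1* over *Cdc25b* gave 24.8, 22.3 and 34.9 in the mutant and 52.4, 41.4 and 32.7 in WT. The groups overlapped through mutant replicate 3 and WT replicate 3, with a log2 difference of -0.63. *Mos* over *Fbxo43* was 21.4, 16.4 and 13.6 in the mutant and 15.0, 13.9 and 14.6 in WT, and these overlapped, with a log2 difference of 0.22, which was 0.04 without mutant replicate 1 and 0.37 without mutant replicate 3.

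**Figure D3:**
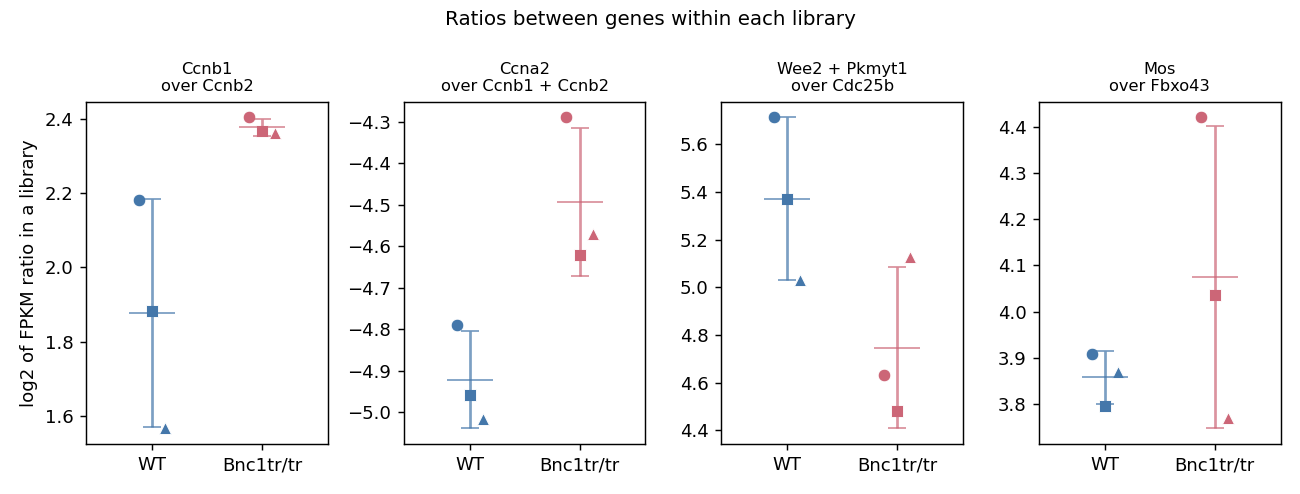
Ratios of FPKM between members within each library (log2 axis), with a point per library, a line at the mean of each genotype and error bars of 1 SD (n = 3). Before the logarithm the ratios of *Ccnb1* over *Ccnb2* were 5.14 to 5.29 in the mutant, above 2.97 to 4.54 in WT. *Wee2* plus *Pkmyt1* over *Cdc25b* overlaps between the genotypes.

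A list of 43 other genes of this pathway was compared in the same fit. Of these, 39 were tested, 7 rose and 2 fell in *Bnc1*tr/tr, beside the 24.1% and 7.68% of all genes given above. The median log2 fold change of the 39 was 0.21. The 7 that rose were 3 without WT replicate 2 and 4 without *Bnc1*tr/tr replicate 3, and the 2 that fell were 1 without either of these or without *Bnc1*tr/tr replicate 2. Under median-ratio scaling 3 rose and 4 fell, beside 1953 and 1535 of all 10560 genes. Under quantile normalization 2 rose and 3 fell, beside 1637 and 1877 of all genes. Under upper-quartile scaling 5 rose and 4 fell, beside 2145 and 1231 of all genes. The counts as deposited in the groups below stand beside the same 24.1% and 7.68%. *Ccna1*, *Ppp2cb*, *Ppp2r2c* and *Rps6ka2* were under the filter on low values.

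Among 9 other cyclins, CDKs and CDK subunits tested, 1 rose and 0 fell. It was *Ccnb3*, the B-type cyclin needed for anaphase of the first division, with 14.52, 14.01 and 14.33 FPKM in the mutant and 10.33, 8.32 and 7.66 FPKM in WT. Its log2 fold change was 0.66 ± 0.17 (SE, limma adjusted p = 0.017), and the call was lost under median-ratio and quantile scaling and without WT replicate 2. The small CDK subunits *Cks2* (0.27, limma adjusted p = 0.37) and *Cks1b* (0.21, limma adjusted p = 0.43) did not pass. Both share many 31-base words with other genes, 31.72% and 23.69%, and *Cks1b* stood at -0.010 under median-ratio scaling. *Ccne1*, which encodes cyclin E1 and was named after its values were seen, stood at 1.28 ± 0.50 (SE, limma adjusted p = 0.084) with overlapping groups, 17.00, 5.32 and 11.56 FPKM against 6.74, 4.99 and 1.17 FPKM. None of the 3 other CDC25 and WEE1 family members, and none of the 3 genes of polo and aurora A kinases, was called.

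The greatwall kinase and the PP2A-B55 phosphatase oppose each other over CDK1 substrates, and 2 of their 9 tested genes rose and 2 fell. The regulatory B55 subunits moved in both directions. *Ppp2r2b* had 12.07, 17.67 and 14.55 FPKM in the mutant and 34.85, 39.00 and 30.32 FPKM in WT, a log2 fold change of -1.19 ± 0.19 (SE, limma adjusted p = 0.0017). *Ppp2r2d* fell by 0.65 on the log2 scale (limma adjusted p = 0.034), from 40.97, 53.16 and 61.91 to 28.48, 34.20 and 34.98 FPKM. *Ppp2r2a* rose from 15.12, 13.93 and 17.00 to 26.05, 22.51 and 28.19 FPKM, by 0.70 ± 0.17 (SE, limma adjusted p = 0.013). *Mastl*, the greatwall kinase, was just past the rule at 0.50 ± 0.16 (SE, limma adjusted p = 0.040), with 130.04, 117.36 and 131.05 FPKM against 97.65, 86.89 and 82.15 FPKM. The *Mastl* call was lost under 10 of 14 alternatives, among them the 3 other scalings and leaving out any single library. That of *Ppp2r2a* was lost under median-ratio and quantile scaling and without *Bnc1*tr/tr replicate 3 or WT replicate 2. Other genes share 11.61% of the 31-base words of *Ppp2r2a*. The call of *Ppp2r2d* was lost with a pseudocount of 0.1 and with each library but WT replicate 1 left out in turn.

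Of the 4 genes of CDC14A and the CDK inhibitors, 3 rose and 0 fell, beside 24.1% and 7.68% of all genes. *Cdkn1b*, which encodes the inhibitor p27, had 21.83, 21.63 and 20.12 FPKM in the mutant and 7.03, 6.51 and 10.52 FPKM in WT, a log2 fold change of 1.32 ± 0.20 (SE, limma adjusted p = 0.0011). *Cdc14a*, the paralog of *Cdc14b*, had 5.41, 4.42 and 4.53 FPKM in the mutant and 1.97, 1.74 and 1.29 FPKM in WT, a log2 fold change of 1.12 ± 0.17 (SE, limma adjusted p = 0.0014). *Cdkn1a*, which encodes p21, had 4.13, 1.99 and 1.47 FPKM against 0.67, 0.79 and 0.27 FPKM, a log2 fold change of 1.11 ± 0.28 (SE, limma adjusted p = 0.015). The *Cdkn1a* call was lost without a filter on low values and under quantile scaling, and an antisense transcript overlaps 12.55% of its exonic bases.

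In the MAP kinase arm below MOS, 1 of 6 tested genes rose and 0 fell. It was *Rps6ka3*, an RSK kinase, with 7.74, 7.39 and 6.44 FPKM in the mutant and 3.42, 3.50 and 5.59 FPKM in WT, a log2 fold change of 0.69 ± 0.20 (SE, limma adjusted p = 0.029), a call lost under 8 of 14 alternatives, the 3 other scalings and every library left out but WT replicate 3 among them. None of the 5 genes listed for the activators of the anaphase-promoting complex, EMI1 and the beta-TrCP proteins that target it was called. *Cdc20*, its activator, stood at 0.53 (limma adjusted p = 0.12), with 179.02, 126.08 and 142.00 FPKM against 126.13, 111.90 and 74.91 FPKM. *Fbxo5*, which encodes the EMI1 paralog of EMI2, stood at -0.48 (limma adjusted p = 0.14), with 117.50, 130.21 and 109.17 FPKM against 222.18, 165.63 and 123.42 FPKM, and passed as lower under upper-quartile and median-ratio scaling and without WT replicate 3. Other genes share 27.40% and 15.29% of the 31-base words of *Cdc20* and *Fbxo5*.

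**Figure D4:**
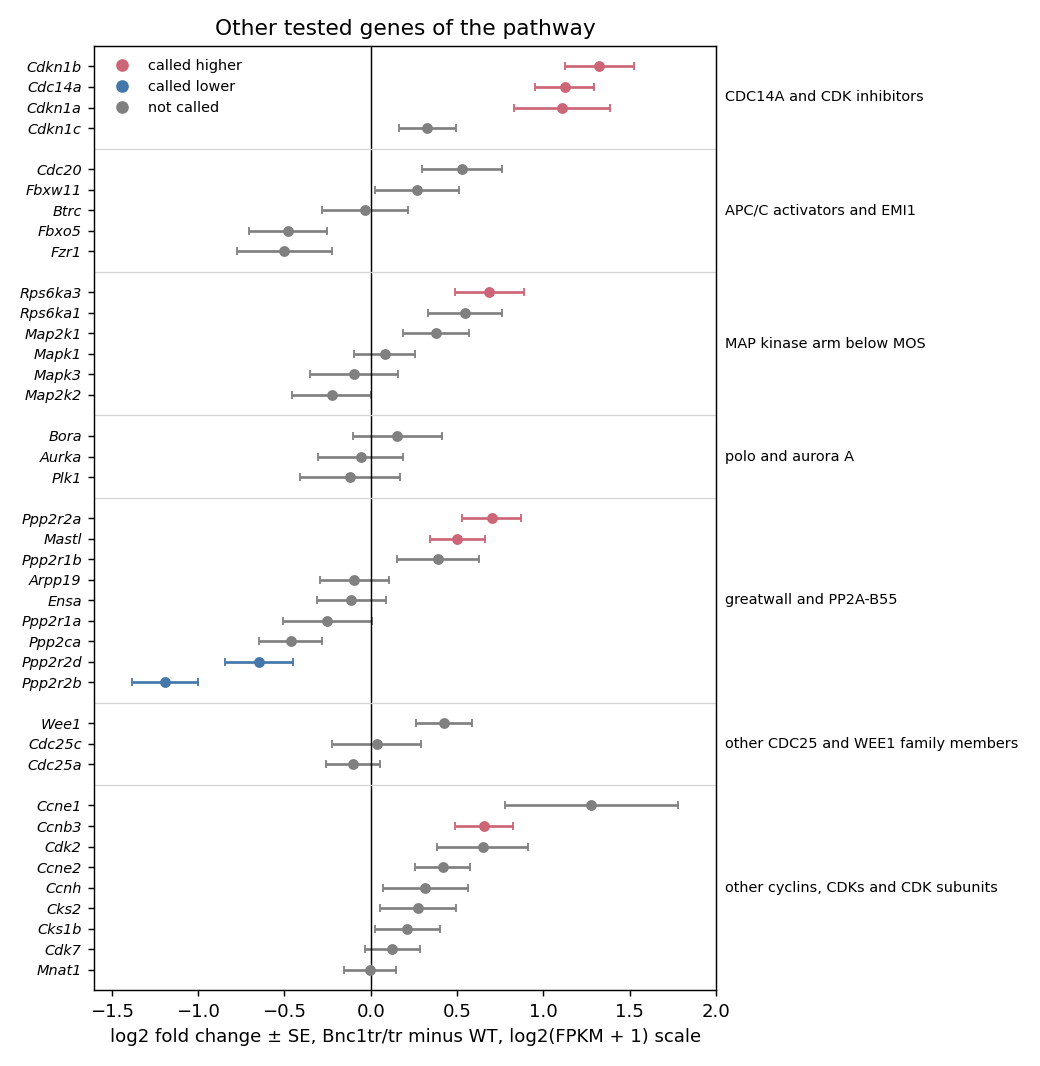
Log2 fold change of *Bnc1*tr/tr over WT with its SE for the other pathway genes tested, grouped by role. *Cdkn1b*, *Ccne1*, *Cdc14a* and *Cdkn1a* lie above 1, of which *Ccne1* was not called, and *Ppp2r2b* at -1.19 is the lowest.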

How the data were processed

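Transcripts of 6 libraries of GV oocytes, 3 *Bnc1*tr/tr and 3 WT by the labels, were compared. For every library the authors deposited FPKM values of genes, given to 2 decimals. The submitters' processing notes name HISAT2 2.0.4, Bowtie2 2.2.5, RSEM 1.2.12 and GRCm38.p6 without their roles, and the annotation and gene filter were not given in the sources used here. Each value is thus a share of its library, and PCR copies could not be told from separate molecules. Of the symbols, 25 that had become dates were restored through the NCBI Gene ID.

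The logarithm log2(FPKM + 1) was fitted by limma 3.58.1 (R 4.3.3), with genes of a mean of at least 1 FPKM (10560 genes) and Benjamini-Hochberg adjustment over all of them, and fold changes of low genes are understated on this scale. The fit was tested on simulated data. Sequences came from RefSeq and GENCODE M21. A value of 3 fragments on a transcript of 1000 bases equals 0.138 to 0.232 FPKM by the estimated depth, which covers counting error only.

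The 10 members and all gene lists were chosen with earlier results of these data known. Of other pathway genes, those named were all called with a mean of at least 10 FPKM, up to 4 further called genes a direction by absolute log2 fold change and the 4 uncalled with the highest mean. For *Mos* and *Ccna2* the 3 most alike genes were named.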

Additional observations from a re-analysis of the deposited data

How the results depend on the processing

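A total of 14 alternatives was tried. The direction of the members was kept in 136 of 140 values, and the 4 that turned were 3 of *Pkmyt1* and *Cdc25b* under quantile normalization. The direction of the 14 other genes named by rule, *Bnc1* included, was kept in 193 of 194 values. Of the 194 values, 33 lost a call and 3 gained it. The cell type markers, *Ccne1*, *Ube2c* and *Birc5* were not among these genes and were not followed over the alternatives. The count of all called genes was 3358 (2547 higher, 811 lower). With a mean of at least 5 FPKM it was 2046, of them 1413 higher, over the smaller set of genes that passed this filter. Lower genes numbered 1231 with upper-quartile, 1535 with median-ratio and 1877 with quantile scaling, and higher genes 2145, 1953 and 1637, against a share of higher calls of 75.8% as deposited. With each library left out, the total ranged from 2323 to 3539, higher from 1905 to 2498 and lower from 418 to 1041. Members called higher ranged from 1 to 4 and called lower stayed at 0. Members called lower were 1 with upper-quartile and 1 with median-ratio scaling. Other pathway genes called higher were 3 with median-ratio and 2 with quantile scaling, and 3 to 8 with each library left out. Those called lower were 1 with a pseudocount of 0.1, 4 with upper-quartile and 4 with median-ratio scaling, and 1 to 2 with each library left out. *Cks1b* turned to -0.010 under median-ratio scaling. The cause of these changes was not tested.

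A fit that took replicate numbers as a block called 3733 genes, 2781 higher and 952 lower, with 4 members and 10 other pathway genes higher. Deviations of same-numbered libraries correlated at 0.28, -0.03 and 0.12, and those of other pairs at -0.25 to 0.16. With so few libraries these values cannot decide whether the numbers pair the samples, and the main fit used no pairing. Depth limits *Pkmyt1* and *Cdc25b* most, with 107 to 218 and 177 to 310 estimated fragments a library.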

Other observations

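Among 10 genes of cell proliferation, 9 of which were tested, 0 rose and 1 fell in *Bnc1*tr/tr, beside 24.1% and 7.68% of all genes. It was *Ube2c*, the ubiquitin-conjugating enzyme that works with the anaphase-promoting complex on cyclin B, and it was named after its values were seen. *Ube2c* had 200.42, 211.61 and 194.44 FPKM in the mutant and 410.16, 386.29 and 289.63 FPKM in WT, a log2 fold change of -0.82 ± 0.18 (SE, limma adjusted p = 0.0088). Every mutant library was below every WT library. *Birc5*, which encodes survivin of the chromosomal passenger complex, was also named after its values were seen. It had 1234.37, 1571.20 and 1346.66 FPKM in the mutant and 1764.65, 1728.74 and 1812.75 FPKM in WT, without overlap, and did not pass (log2 fold change -0.36, limma adjusted p = 0.13). Of the 10 genes, 0 were higher and 3 lower without overlap (*Ube2c*, *Birc5* and *Mki67*), beside 32.7% and 14.1% of all genes tested.

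The genes whose values over the 6 libraries were most like those of *Mos* were *Mynn*, *Pde6b* and *Prpf6*, with Pearson correlations of 0.998, 0.997 and 0.996 of log2(FPKM + 1). For *Ccna2* they were *Wdr75*, *Rps6kb1* and *Mxd1*, with 0.999, 0.997 and 0.997. Of the 5282 genes averaging 10 FPKM or more, 172 were above 0.95 for *Mos* and 174 for *Ccna2*. The libraries fall into the 2 genotypes, and the compared values of a library share its depth and scaling, so these values describe a likeness and are given without a test.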
